A study of Mus musculus with 6 samples.

Results

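The peaks described here are the shared intergenic binding sites of COUP-TFII in the fetal mouse mesonephros. A peak of the XX list was taken when it lay on an autosome and had at least 1 bp in common with a peak of the XY list. Its centre also had to lie outside every protein-coding gene body, at most 100 kb from the nearest one, and more than 1 kb from the ends of all annotated genes of any kind. This gave 728 of the 7483 shared peaks of the series, which held 11175 peaks in the XX list and 9846 in the XY list. The peaks were thus chosen by measured values, overlap between the lists and position relative to genes, and both are given as descriptions with no test.

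Chromatin immunoprecipitation followed by sequencing (ChIP-seq) was done on E14.5 mesonephroi from CD-1 mice, with 2 samples from XX embryos, 2 from XY embryos and 2 of pooled input. CD-1 is an outbred strain, no genetic change or treatment is named for any group, and each sample came from a pool of embryos. The titles, tissue, antibody and design name COUP-TFII and mesonephroi, while the extraction text of the labels names RUNX1 and ovaries. The deposited lists are 1 per sex over both of its replicates and carry positions only, so no peak has a height, a depth or a spread between replicates, and intervals below cover counting error only.

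COUP-TFII, the product of Nr2f2, is a nuclear receptor of mesenchymal cells that binds DNA at repeats of the half-site AGGTCA and can repress or activate nearby genes. The mesonephros lies beside the fetal gonad and holds the Wolffian and Müllerian ducts within a mesenchyme. In mouse embryos COUP-TFII in this mesenchyme is needed for the Wolffian duct to disappear in XX embryos. Binding sites that lie between genes can act as enhancers on genes at a distance, and the nearest gene need not be the one they act on.

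The RefSeq tables for GRCm38.p6, the assembly of mm10, hold sequences of 2 kinds for these peaks: the microRNAs that lie beside 4 of them, and stretches of promoter windows (250 bases before to 50 after a transcript start). The microRNAs are shown because these peaks are intergenic only with respect to protein-coding genes. A pair of peaks, at chr14:115040313-115040612 and chr14:115042234-115042533, lay before the Mir17 to Mir92-1 cluster, whose microRNAs promote growth and cell survival. Another, at chr8:84180592-84180891, lay beside Mir181d. The mature sequences are printed with the seed (bases 2 to 8 of the microRNA, which pair with target messages) in capitals.
miR-17-5p: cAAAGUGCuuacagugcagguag
miR-20a-5p: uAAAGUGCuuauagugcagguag
miR-18a-5p: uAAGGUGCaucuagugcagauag
miR-19a-3p: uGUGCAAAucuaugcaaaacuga
miR-19b-3p: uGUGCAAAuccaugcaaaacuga
miR-92a-3p: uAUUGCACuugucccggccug
miR-181d-5p: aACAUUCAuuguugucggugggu
The seed AAAGUGC is common to miR-17-5p and miR-20a-5p, and GUGCAAA is common to miR-19a-3p and miR-19b-3p.

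Promoter windows touched 2 of the 728 peaks, and the overlapping stretches are printed as the only sequence of the peaks themselves in these tables. Both come from transcripts that start inside noncoding genes, more than 1 kb from the annotated gene ends. At chr13:43864573-43864872, a peak 61.6 kb from Cd83, a surface protein of activated immune cells, the first 33 bases lay in a window of the lncRNA Gm33195. At chr13:59196428-59196727, 62.6 kb downstream of Ntrk2, a neurotrophin receptor, the first 185 bases lay in a window of the lncRNA Gm34558, within the overlapping lncRNAs Gm34354 and Gm34558. Below them stand the promoter windows of 3 genes that had a shared peak over their promoter as well as a shared intergenic peak. They were picked from 46 windows of such genes. Rps21 is in a gene list used below, Rpusd4 had 3 shared intergenic peaks, and Fam229a was picked for holding at least 2 half-sites. Every AGGTCA on either strand is in capitals, and sequences read 5′ to 3′ on the strand named.
Gm33195 (chr13:43864573-43864605, plus strand): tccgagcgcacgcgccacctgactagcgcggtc
Gm34558 (chr13:59196428-59196612, minus strand): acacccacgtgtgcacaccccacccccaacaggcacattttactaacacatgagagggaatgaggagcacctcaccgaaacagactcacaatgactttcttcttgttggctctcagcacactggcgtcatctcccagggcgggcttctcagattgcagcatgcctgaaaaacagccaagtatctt
Rps21 (chr2:180257199-180257498, plus strand): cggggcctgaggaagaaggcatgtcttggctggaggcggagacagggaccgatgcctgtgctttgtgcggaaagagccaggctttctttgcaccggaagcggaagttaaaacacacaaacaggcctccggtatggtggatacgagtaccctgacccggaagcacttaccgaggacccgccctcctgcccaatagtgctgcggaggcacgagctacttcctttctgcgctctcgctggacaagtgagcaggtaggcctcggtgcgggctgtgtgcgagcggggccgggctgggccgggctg
Fam229a (chr4:129490940-129491239, plus strand): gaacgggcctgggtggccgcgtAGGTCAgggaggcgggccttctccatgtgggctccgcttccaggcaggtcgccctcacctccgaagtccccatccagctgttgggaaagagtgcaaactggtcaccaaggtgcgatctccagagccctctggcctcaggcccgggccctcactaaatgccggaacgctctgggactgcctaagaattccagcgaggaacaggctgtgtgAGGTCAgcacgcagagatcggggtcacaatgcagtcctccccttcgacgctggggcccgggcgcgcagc
Rpusd4 (chr9:35267631-35267930, plus strand): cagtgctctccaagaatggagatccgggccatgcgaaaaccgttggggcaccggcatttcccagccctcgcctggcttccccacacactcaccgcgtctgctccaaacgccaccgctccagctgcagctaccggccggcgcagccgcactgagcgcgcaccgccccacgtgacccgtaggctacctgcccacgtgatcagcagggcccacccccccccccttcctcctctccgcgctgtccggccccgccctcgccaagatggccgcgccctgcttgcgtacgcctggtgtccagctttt
Fam229a held 2 half-sites in its window, for which it was picked, so its count follows from that choice. The other 4 stretches held 0.

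AGGTCA was searched on both strands, and so were direct repeats of it (AGGTCA, 0 to 5 bases of any kind, AGGTCA). Of the 674 genes nearest to a shared intergenic peak, 512 had windows in the promoter table, which holds no gene of chromosome 18. A half-site stood in 75 of their 653 windows, which was 11.5% (95% exact interval 9.14 to 14.2). It stood in 2951 of 20084 windows (14.7%) of the 16456 autosomal protein-coding genes in that table. Windows of the same gene can share bases, while the intervals take each window as independent and so can be too narrow. The difference was not tested. Among these genes, 43 had the centre of a shared peak inside 46 of their windows, and 9 of the 46 (19.6%, 9.36 to 33.9) held a half-site. Across the genome it stood in 305 of the 1453 windows with the centre of a shared peak (21.0%, 18.9 to 23.2). No direct repeat was found in the 653 windows, and 13 were found in the 20084. These windows are promoters of the neighbouring genes and not the intergenic peaks, whose own sequence was read here only at the 2 stretches above.

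In the XX list, 728 of the 1494 autosomal peaks placed in intergenic sequence within 100 kb of a gene were also in the XY list, which is 48.7% (46.2 to 51.3). In the XY list it was 726 of 1005, or 72.2% (69.4 to 74.99). The counts need not match, since a pair can straddle a limit of the rule. Within 1 kb of a gene end, 78.2% of XX peaks and 78.2% of XY peaks were in the other list. Inside protein-coding genes away from their ends it was 56.8% of XX and 71.9% of XY peaks, and over 100 kb from any protein-coding gene 45.4% of XX and 71.8% of XY peaks. The XX list thus held more intergenic peaks of its own, 766 XX-only against 279 XY-only. How many reads lie behind each list is unknown, and the part of depth in this was not tested. Peaks of the rule made up 9.92% of the 7340 shared autosomal peaks, beside 4959 at gene ends, 1359 inside genes and 294 over 100 kb away. On the X chromosome, which the rule leaves out, 17 of 39 such XX peaks were shared.

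**Figure D1:**
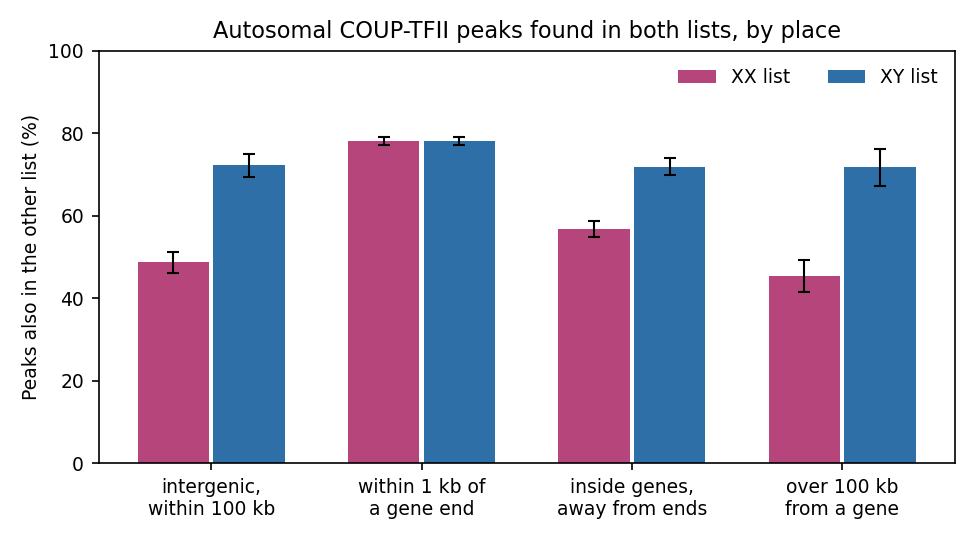
Share of autosomal peaks of each list that had at least 1 bp in common with a peak of the other list (vertical axis, percent), by place relative to genes, for the XX list (left bar of each pair) and the XY list (right bar). Error bars are 95% exact binomial intervals over peaks. The intergenic pair stands at 48.7% for XX and 72.2% for XY, and the pair at gene ends at 78.2% for both.

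The peaks on the edges of the rule were as follows. The farthest inside lay 99.9 kb from Hmgn3, 99.8 kb from Ptger4 and 99.6 kb from Cdc42ep3, and the nearest left out lay 100.04 kb from Rbbp6 and 100.05 kb from Ptpn20. At the limit of 1 kb, the closest kept were 1004 bp from an end of Kcnh2, 1006 bp from the end of a noncoding gene near Mrps28 and 1019 bp from Gm46320. The closest left out were at 979 bp near Dll4 and at 971 bp near Slc44a3 and Vmn2r129. The smallest overlaps kept were 6 bp near Hpgd, 14 bp near Ruvbl1 and 19 bp near Npr1, and the nearest pairs left out had centres 308 bp apart near Actbl2, 312 bp near Hdhd5 and 325 bp near Tank. All peaks are 300 bp wide.

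Shared intergenic peaks lay a median of 20.4 kb from the nearest protein-coding gene (95% interval 17.8 to 23.2), with the middle 50% between 8.39 and 45.6 kb. Of the 728, 124 (17.0%) lay within 5 kb, 215 (29.5%) within 10 kb and 161 (22.1%) beyond 50 kb. The median was 23.4 kb (21.0 to 26.0) for the 766 XX-only and 24.4 kb (21.1 to 30.2) for the 279 XY-only intergenic peaks. Positions taken every 500 bp through the same kind of sequence, 28.3% of the autosomal positions, lay a median of 23.3 kb away, with 27.5% within 10 kb. The intervals of the 3 kinds of peak overlap, while the medians of XX-only peaks, XY-only peaks and positions lay above the interval of shared peaks.

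**Figure D2:**
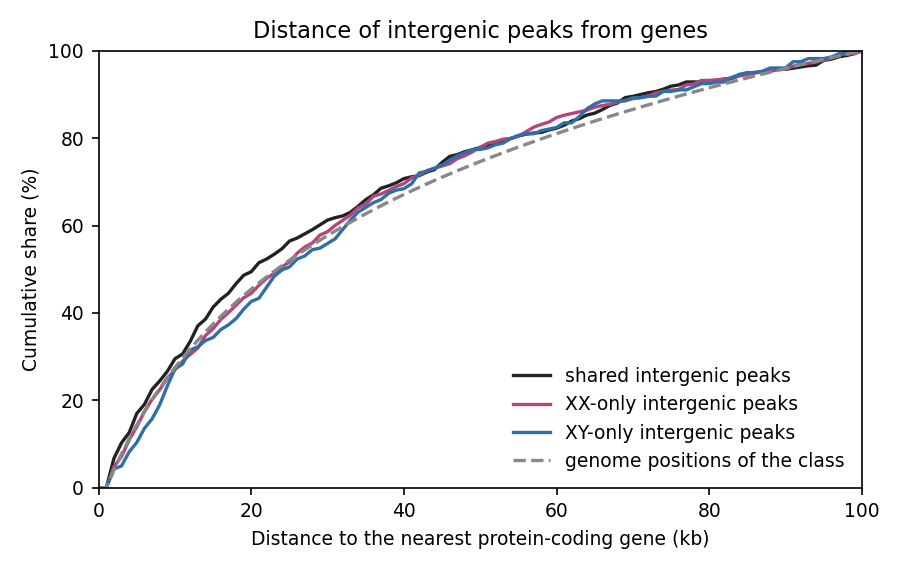
Cumulative share (vertical axis, percent) of shared, XX-only and XY-only intergenic peaks and of genome positions of the same class against the distance from the nearest protein-coding gene (horizontal axis, kb). Within 10 kb lay 29.5% of shared peaks, 27.0% of XX-only peaks, 27.2% of XY-only peaks and 27.5% of positions. In the same order the shares were 17.0, 14.0, 10.4 and 14.4% within 5 kb, and 41.3, 36.4, 34.4 and 37.5% within 15 kb.

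The promoter table gives the strand of the nearest gene for 553 of the 728 peaks, and for none of the 20 on chromosome 18, which it lacks. Of these, 277 lay upstream of the gene and 276 downstream, so 50.1% (45.8 to 54.3) were upstream, against 53.9% of genome positions of the class. A second protein-coding gene flanked the peak within 100 kb at 427 of the 728 (58.7%), and at 227 it lay at less than 2 times the distance of the nearest. The gap between flanking genes had a median of 111 kb. A noncoding gene was closer than any protein-coding gene for 423 peaks (58.1%), of which 313 had a lncRNA and 88 a pseudogene nearest. Second genes, gaps and closer noncoding genes were not counted for genome positions. These values may thus describe the class of sequence as much as the peaks. Noncoding gene bodies held 121 peaks (16.6%), against 14.0% of genome positions, and the other 607 lay outside every annotated gene.

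Chromosome 2 carried the most shared intergenic peaks, 61, and chromosome 19 the fewest, 18. Per Mb of such sequence the density was 1.05 over all 692 Mb, with 1.58 on chromosome 15 and 1.54 on chromosome 17 at the top, and 0.699 on chromosome 6 and 0.784 on chromosome 3 at the bottom. Density also differed with the room around a gene. It was 1.75 peaks per Mb (16 peaks) for genes with up to 5 kb of such sequence nearest to them and 0.750 per Mb for genes with over 100 kb. Between these it was 1.64 for 5 to 20 kb, 1.13 for 20 to 50 kb and 1.21 for 50 to 100 kb, so the fall was not steady.

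XX and XY peaks of a pair lay close together. The centres of the 728 pairs were a median of 30.5 bp apart, with the middle 50% between 13 and 64.3 bp, 4 pairs at the same position and 35 (4.81%) over 150 bp apart. All peaks have 1 width, so the distance between centres is the overlap that the rule used, seen from its other side, and it is given as a description with no test. Centres within 50 bp were found for 490 of 728 intergenic pairs (67.3%, 63.8 to 70.7), against 64.2% at gene ends, 66.9% inside genes and 64.3% over 100 kb from genes. Within 100 bp lay 89.0% of intergenic pairs, against 84.8% at gene ends, 87.4% inside genes and 88.4% over 100 kb from genes. Peaks are the units here, so these shares compare places in the 2 lists and not the sexes.

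**Figure D3:**
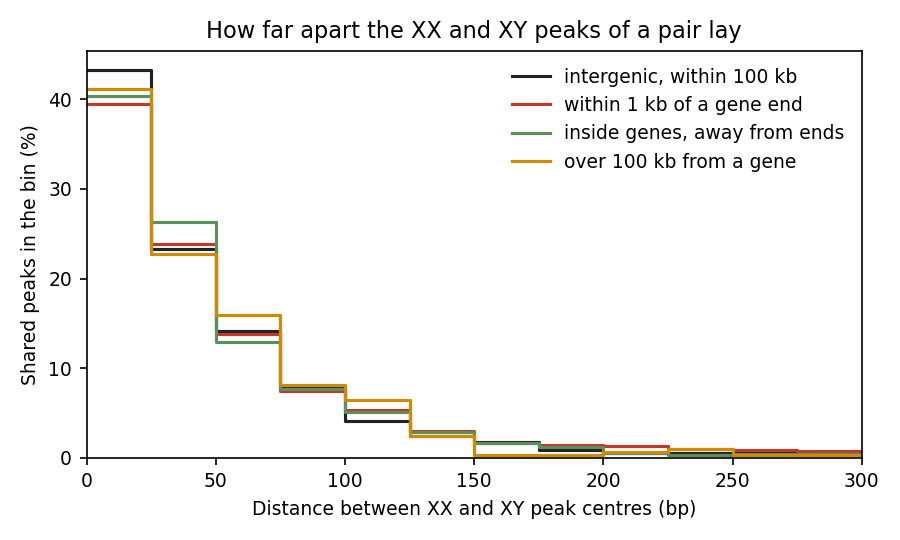
Share of shared peaks (vertical axis, percent of the class) in bins of 25 bp of the distance between XX and XY centres (horizontal axis, bp), for intergenic peaks within 100 kb, peaks within 1 kb of a gene end, peaks inside genes and peaks over 100 kb from a gene. All 4 classes are highest in the first bin, with medians of 30.5, 33, 33 and 33.5 bp.

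The spacing of shared peaks is described next, with no test, since the rule bears on it: it keeps these peaks more than 1 kb from gene ends, where 67.6% of shared autosomal peaks lay. Another shared peak lay within 10 kb of 71 of the 728 intergenic peaks (9.75%, 7.70 to 12.1). The count was 685 of 4959 at gene ends (13.8%, 12.9 to 14.8), 180 of 1359 inside genes (13.2%, 11.5 to 15.2) and 19 of 294 over 100 kb from genes (6.46%, 3.94 to 9.91). Within 5 kb the shares were 3.02% for intergenic peaks, 8.13% at gene ends, 7.43% inside genes and 3.40% over 100 kb from genes. Within 25 kb they were 25% for intergenic peaks, 29.2% at gene ends, 27.4% inside genes and 11.9% over 100 kb from genes. The distance to the next shared peak had a median of 61.5 kb for intergenic peaks, 50.7 kb at gene ends, 60.4 kb inside genes and 161 kb over 100 kb from genes.

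Within 10 kb of each other lay 15 pairs of shared intergenic peaks, 14 of them with the same nearest gene and 7 within 2 kb. The closest pair had centres 704 bp apart, at chr15:94444043-94444342 and chr15:94444747-94445046, 12.1 and 12.8 kb upstream of Adamts20, a matrix protease. Pairs 785 and 949 bp apart lay downstream of Lpar5, a lysophosphatidic acid receptor, and of Npr1, the receptor of atrial natriuretic peptide. At Nav1, a neuron navigator gene, the pair was 1881 bp apart, 9.25 and 11.1 kb upstream. The pair before the Mir17 cluster was 1921 bp apart, with its centres 3.21 and 1.29 kb before the Mir17 hairpin (chr14:115043671-115043754, plus strand). XX and XY centres differed by 18 and 17 bp there, and the nearest protein-coding gene, Gpc5, a heparan sulfate proteoglycan, was 51.7 and 49.8 kb away. The peak beside Mir181d lay 1.95 kb from its hairpin and 4.19 kb upstream of Nanos3, an RNA-binding protein of germ cells, with centres 45 bp apart. The other peak with a hairpin within 5 kb lay 2.55 kb from Mir3089, with XX and XY centres 254 bp apart.

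The 728 peaks named 674 of the 20661 autosomal protein-coding genes as nearest (3.26%). Of these, 626 had 1 such peak, 42 had 2, and 6 had 3: Igf1, Wnt7b, Chd2, Fgd2, Cpn2 and Rpusd4. These 6 were picked for their counts, so the counts carry no test. Counting either flanking gene within 100 kb, 1033 genes were reached (5%). Genes with a shared intergenic peak had a median of 66.3 kb of such sequence nearest to them, against 15 kb for all autosomal protein-coding genes. Each peak was given to its nearest gene, so genes with more such sequence have more room for one, and the contrast is tied to that assignment. Per Mb the density was lower at the widest flanks, as given above.

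Igf1 encodes insulin-like growth factor 1, a paracrine growth factor that mesenchyme supplies to the reproductive ducts. Its shared intergenic peaks stood on both sides of the gene (chr10:87858265-87937047). Upstream were chr10:87787564-87787863 at 70.6 kb, inside the noncoding gene Gm30073, and chr10:87821913-87822212 at 36.2 kb. Downstream was chr10:87999947-88000246 at 63.0 kb. XX and XY centres differed by 57, 22 and 27 bp. No peak of either list lay at the ends of Igf1 or inside it. At the overall density, 0.169 peaks would fall in its 161 kb of intergenic sequence, though density was lower, 0.750 per Mb, at genes with over 100 kb. Igf1 was picked for its count, so this number does not measure an excess.

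Wnt7b, a WNT ligand made by collecting duct epithelium of the kidney, had its 3 peaks on one side (gene at chr15:85535437-85581821). They were chr15:85610791-85611090, chr15:85645998-85646297 and chr15:85653633-85653932, at 29.1, 64.3 and 72.0 kb, all between Wnt7b and Ppara, a lipid-sensing nuclear receptor that was 81.1 kb or more away. Centres differed by 71, 10 and 128 bp. The same gap also held a shared peak that the rule leaves out, an XX-only peak and an XY-only peak. Chd2, a chromatin remodeller, likewise had 3 on one side (gene at chr7:73426652-73541746). They were chr7:73595153-73595452, chr7:73606896-73607195 and chr7:73618535-73618834, at 53.6, 65.3 and 76.9 kb, the first and second of them inside the noncoding gene Gm30149. A shared peak also lay inside Chd2, and another that the rule leaves out lay between the gene and these 3.

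At Fgd2, an exchange factor for the GTPase Cdc42, the 3 peaks lay 4.45 kb upstream and 18.6 and 36.8 kb downstream of the gene (chr17:29360904-29379535). The upstream pair, at chr17:29356306-29356605, had centres 275 bp apart, close to the largest distance that still overlaps, while those at chr17:29398019-29398318 and chr17:29416204-29416503 differed by 49 and 2 bp. Cpn2, a subunit of the plasma enzyme carboxypeptidase N, had 3 peaks at 84.4, 83.3 and 68.2 kb, all inside the noncoding gene Gm26562. They were chr16:30171816-30172115, chr16:30172959-30173258 and chr16:30188005-30188304. The protein-coding gene on their other side was Hes1, a Notch effector, which is also over 100 kb from each of them. Rpusd4, a mitochondrial RNA pseudouridine synthase, had chr9:35283292-35283591, chr9:35335944-35336243 and chr9:35346403-35346702, at 7.48, 60.1 and 70.6 kb downstream. The last of them lay 74.98 kb from Cdon, a hedgehog co-receptor, nearly as close. Rpusd4 was the only one of the 6 with a shared peak at its end, over the promoter window printed above.

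**Figure D4:**
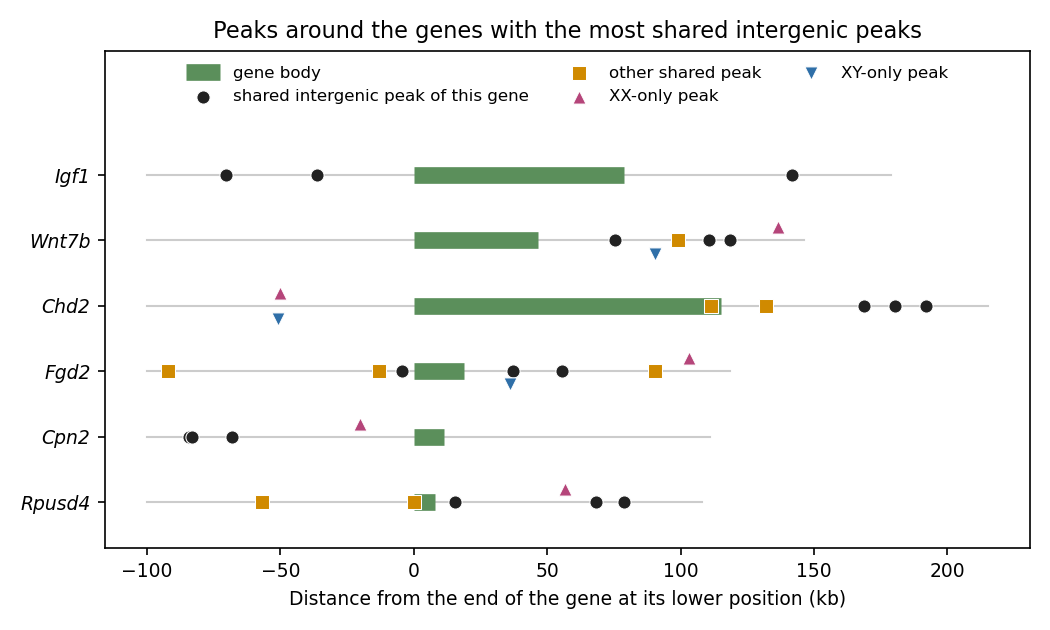
Peaks around the 6 genes with 3 shared intergenic peaks, by distance from the end of the gene at its lower position (horizontal axis, kb), drawn to scale and to 100 kb beyond each end. Black circles are shared intergenic peaks with that gene nearest, squares are other shared peaks, and triangles are XX-only peaks (raised, pointing up) and XY-only peaks (lowered, pointing down). Igf1 and Fgd2 have shared intergenic peaks on both sides, while those of Wnt7b, Chd2, Cpn2 and Rpusd4 lie on one side.

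Of the 42 genes with 2 shared intergenic peaks, 5 are described as examples, chosen after their values were seen and not for what the others have in common. Socs3, an inhibitor of cytokine signalling, had them 2.64 and 16.3 kb downstream, with XX and XY centres only 7 and 9 bp apart. Itga8, an integrin of mesenchyme needed for kidney growth, had them 46.0 and 83.1 kb downstream. Pkdcc, a secreted tyrosine kinase, had them 17.6 and 92.0 kb upstream, and Ddr1, a collagen receptor, 6.15 and 20.9 kb upstream. Il33, a cytokine, had 1 on each side, 22.3 kb upstream and 4.13 kb downstream.

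Of the 674 genes, 184 also had a shared peak within 1 kb of one of their ends (27.3%, 24.0 to 30.8), against 24.9% of all autosomal protein-coding genes. A shared peak inside the gene was present at 91 (13.5%, 11.0 to 16.3), against 6.88%. An XX-only intergenic peak was also nearest to 103 of them (15.3%, 12.6 to 18.2), against 3.42%, and an XY-only one to 38 (5.64%, 4.02 to 7.66), against 1.29%. The genes also have wider intergenic flanks than others, as given above, and the shares were not corrected for that. At 256 genes (38.0%) a shared peak at an end or inside accompanied the intergenic one. The share of all genes with either kind was not counted, so this share has nothing to be set against.

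The genes were set against 20 lists of signalling, tissue and cell-type genes, chosen with earlier results of these data known. Of 606 autosomal genes in the lists, 64 (10.6%) were nearest to a shared intergenic peak, against the 3.26% of all autosomal protein-coding genes, and 83 (13.7%) flanked one on either side within 100 kb, against 5%. Many listed genes have wide intergenic flanks, so the number of peaks is given beside the number that the overall density of 1.05 per Mb would place in each list's intergenic sequence. This corrects for width only in part, since density was 1.75 per Mb at the narrowest flanks and 0.750 at the widest. The number is thus low for lists with narrow flanks, such as cytosolic ribosome (median 5.5 kb per gene). It is high for lists with wide ones, such as mesenchyme (114 kb) and guidance molecules (117 kb). These are descriptions with no test.

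Among mesenchymal transcription factors and markers, 10 of 48 genes (20.8%) had a peak, with 10 peaks against 5.77 at the overall density. Per Mb of intergenic sequence that was 1.82 peaks, below several of the lists that follow, such as extracellular matrix at 3.40 and cytosolic ribosome at 4.07. Tbx3, a T-box factor, had a peak at 2.56 kb (chr5:119687135-119687434) inside the noncoding gene Tbx3os2. Nr2f1, the closest relative of Nr2f2, had one 4.93 kb upstream (chr13:78203655-78203954), whose XX and XY centres were 149 bp apart. Meis1, a homeobox factor, had one 7.66 kb upstream with centres 15 bp apart. Eya4, Ebf2 and Osr2 had peaks at 14.4, 21.0 and 23.3 kb. Pdgfra, the platelet-derived growth factor receptor that marks mesenchyme, had one 58.2 kb downstream, Foxd2 one at 63.0 kb and Dcn, the matrix proteoglycan decorin, one at 70.2 kb.

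Extracellular matrix genes had 10 peaks at 8 of 45 genes (17.8%), against 3.10 at the overall density. Col1a2, a chain of type I collagen, had peaks 15.9 and 49.2 kb upstream, with centres 49 and 7 bp apart. Col6a3, a chain of type VI collagen, had them 22.7 and 75.8 kb downstream. The basement membrane genes Nid1, Lamb1 and Nid2 had peaks at 4.78, 16.8 and 17.5 kb, Tnc (tenascin C) at 11.6 kb, Mgp (an inhibitor of calcification) at 12.2 kb and Thbs1 (thrombospondin 1) at 72.4 kb. In smooth muscle, Actn1 and Myocd, the co-activator of the contractile genes, had peaks at 20.8 and 71.9 kb, for 2 of 18 genes and 2 peaks against 0.535.

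In the BMP and TGF-beta pathway 9 of 58 genes (15.5%) had a peak each, against 4.01 at the overall density. Ligands were Bmp5 at 27.4 kb and Bmp7 at 36.1 kb. Receptors were Bmpr2, 1.17 kb upstream, and Tgfbr1, 23.0 kb downstream. The signal transducer Smad3 had a peak 17.8 kb upstream and the inhibitory Smad7 one at 24.2 kb. The Id genes, targets of BMP signalling that block basic helix-loop-helix factors, were among the closest, with Id2 at 2.59 kb, Id3 at 3.06 kb and Id1 at 6.87 kb. Centres of the XX and XY peaks at Id2, Id3 and Id1 were 16, 18 and 21 bp apart. Between Id3 and E2f2, a cell cycle factor, lay a second shared intergenic peak, 12.1 kb from E2f2 and 14.8 kb from Id3.

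WNT signalling had 8 peaks at 5 of 54 genes (9.26%), against 3.66 at the overall density. Besides the 3 at Wnt7b, the ligand gene Wnt2b had a peak 6.30 kb upstream and the co-receptor gene Ror2 one 40.7 kb downstream. Lef1, which carries the signal in the nucleus, had one 33.8 kb upstream. Sfrp1, a secreted WNT inhibitor, had one on each side, at 58.9 and 60.6 kb. For hedgehog signalling the only gene of 21 was Gas1, a co-receptor of the ligand, with peaks 63.8 kb downstream and 48.7 kb upstream, against 1.36 at the overall density.

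FGF signalling had 3 of 28 genes, against 2.25 peaks at the overall density: the targets Etv1 (1.26 kb upstream) and Etv4 (44.9 kb), and Dusp6 (1.64 kb upstream), which switches the pathway's kinase off. Notch signalling had 2 of 24, the ligand Dll4 (2.19 kb) and the receptor Notch4 (8.56 kb), with 2 peaks against 1.03. Retinoic acid had 2 of 20, the synthetic enzyme Aldh1a3 (29.6 kb) and the receptor Rxra (55.5 kb), with 2 peaks against 1.18. In the androgen and estrogen list 3 of 25 genes had 5 peaks, against 1.44, and all 3 were genes of the insulin-like growth factors: Igf1, its receptor Igf1r (1.17 kb upstream) and Igf2r (20.9 kb upstream, inside the noncoding gene Airn).

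Of 25 Wolffian duct genes 3 had a peak (12%), against 1.63 peaks at the overall density: Krt18, an epithelial keratin, at 2.45 kb, Pax8, a factor of both ducts and the kidney, at 27.5 kb, and Etv4. Of 24 Müllerian duct genes 3 had one (12.5%), against 1.59 peaks, namely Sp7 at 10.4 kb, Osr2 and Pax8. Cytosolic ribosomal protein genes, which have little intergenic sequence around them, had 5 of 70 (7.14%), against 1.29 peaks at the overall density: Rpl12, Rps24, Rps21, Rpl29 and Rplp1, at 2.82, 3.84, 6.12, 22.3 and 97.1 kb. Cell cycle genes had 4 of 39, against 1.198 peaks: Ccnd1, E2f2, Ccne1 and E2f3, at 3.57, 12.1, 12.3 and 65.9 kb. Guidance molecules, which have wide flanks, were below the overall density, with Efna5 and Sema3e (17.9 and 32.2 kb upstream) for 2 of 34 genes. They had 2 peaks against 3.79.

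Markers of other cell types that a mesonephros sample could hold were counted in the same way. Endothelial genes had 3 of 20 (15%), the vascular cadherin Cdh5 at 1.87 kb, Emcn at 51.7 kb and the VEGF receptor Kdr at 61.6 kb, against 1.22 peaks at the overall density. Gonadal somatic genes had 1 of 25 (Gata4, at 50.5 kb and almost as far from Blk), against 1.65 peaks, and liver plasma proteins 1 of 23 (Fgg, 36.5 kb), against 0.508. Neuronal genes had 0 of 19, against 1.64, and blood and immune genes 0 of 19, against 0.604. Which cells of the tissue carried any of these peaks was not tested.

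**Figure D5:**
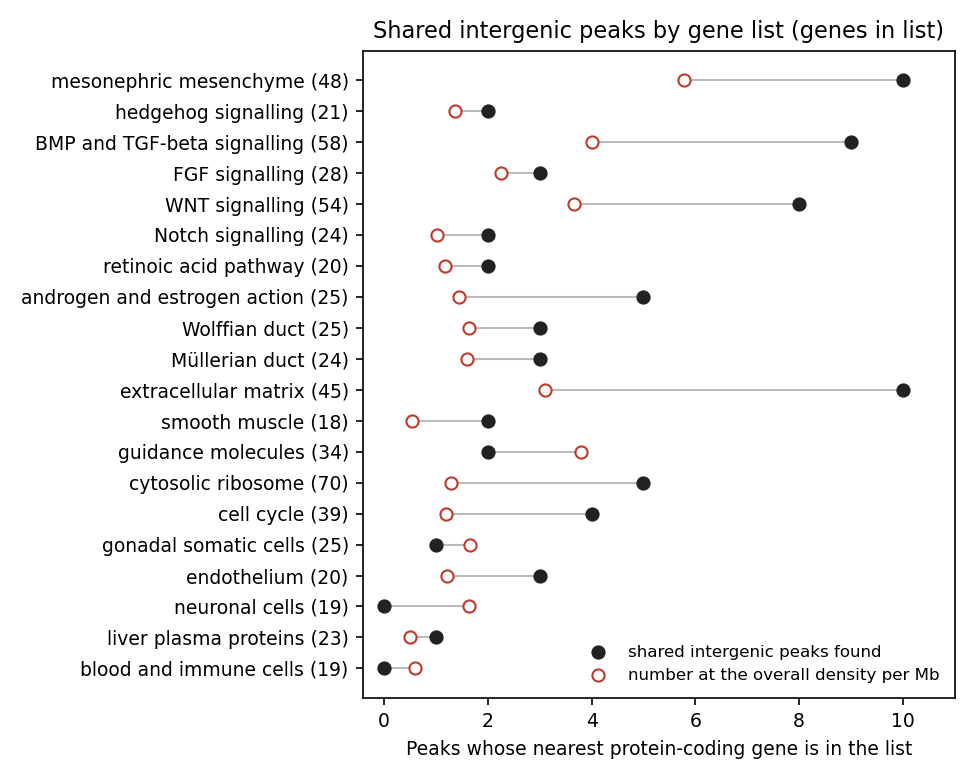
Number of shared intergenic peaks whose nearest protein-coding gene is in each of 20 gene lists (black points) beside the number that the overall density per Mb would place in the list's intergenic sequence (open circles), with the number of autosomal genes in each list in parentheses (horizontal axis, peaks). Mesenchyme and extracellular matrix lists reach 10 peaks, against 5.77 and 3.10. Neuronal and blood lists are at 0, against 1.64 and 0.604. Per Mb the mesenchyme list had 1.82 peaks, below cytosolic ribosome (4.07) and liver plasma proteins (2.07) and above FGF signalling (1.40). The same density was used for all lists, although density was 1.75 per Mb at the narrowest flanks and 0.750 at the widest.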

How the data were processed

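The authors deposited 1 list of COUP-TFII peak positions (in bp, other units and scores absent) per sex, named in the labels of both replicates. Per the submitters' processing notes the build is mm10 and the tools include HOMER 4.10.3, Bowtie 1.2, bedtools 2.24.0, Picard and cutadapt, with no roles. The calling threshold is not given in the sources used here, nor is the way replicates were joined. Input and signal tracks were not analysed here, so depth is unknown.

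Positions were counted from 1. Genes came from the RefSeq table of GRCm38.p6 (20661 autosomal protein-coding genes), which has no strand, and strand came from the promoter table. Overlap, distances and classes were computed with pandas 2.3.3 and numpy 2.4.6, checked against bedtools 2.31.1 and tested on simulated data. Shares have exact (Clopper-Pearson) 95% intervals from scipy 1.17.1. Fisher's tests of centre distance and of spacing between classes were planned and are not reported, since the first is the overlap that the rule used and the second depends on its distance from gene ends. The genes named are those with at least 3 peaks, those of the lists (up to 5 each, others as examples behind a count) and those at the rule's edges, besides examples said to be chosen after their values were seen. Fam229a was named for the 2 half-sites in its promoter window. Motifs were to be sought in the peaks; no genome was used here, so promoter windows took their place. Members and lists were chosen with earlier results of these data known. A gene that a list takes in is not reported here.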

Additional observations from a re-analysis of the deposited data

How the results depend on the processing

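The lists carry no height, depth or replicates, so a peak missing from 1 list may be unbound or under the threshold, and leaving out replicates could not be run. No paired analysis was possible because each sex has 1 list pooled over its replicates. Across the planned definitions of overlap, of the distance from gene ends and genes, and of the list that gives the coordinates, the number of shared intergenic peaks stayed between 567 and 998 and the number of genes between 543 and 861. The share of XX peaks that were shared became 43.4% with centres within 100 bp and 52.1% with only protein-coding gene ends avoided, and it was 72.2% for XY peaks placed by XY positions. The median distance became 23.7 kb when ends were avoided by 2.5 kb, 17.7 kb with protein-coding ends only, 14.2 kb with a limit of 50 kb and 37.1 kb with 500 kb, as the limits themselves allow. The share of peaks with another shared peak nearby, minus that of peaks over 100 kb from genes, was 3.29 percentage points at 10 kb, -0.38 at 5 kb, on the other side of 0, and 13.1 at 25 kb. The cause was not tested. Against gene ends and inside genes, the differences in nearness and in centre distance kept their sign at each window. Counting either flanking gene gave 3 hedgehog, 5 Wolffian, 5 endothelial and 1 neuronal gene. The lists were not recounted with ends avoided by 2.5 kb. Peaks of listed genes just past the 1 kb limit, such as those at Etv1 (1.26 kb) and Dusp6 (1.64 kb), would be left out there.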
